A study of Mus musculus with 714 samples.

Results

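At postnatal day 14, 61 uterine epithelial cells carried at least 5 counts of Acot7, Cited4 and Jam2 summed, 36 carried 0 to 2, and 11 carried 3 or 4. The 61 cells, called high below, are compared here with the 36 low cells. They come from a single-cell RNA-seq series of 714 cells of the uterus of ICR mice, sorted for CD326 (EpCAM, an epithelial surface protein) at postnatal days (pnd) 0, 7, 14, 28 and 56. ICR is an outbred laboratory stock, and the labels give no treatment, no genetic change and no sex, and name no animal, litter or pool. A further 34 cells of pnd14 were left out because they held more than 1 count of Ovgp1, the oviduct-specific glycoprotein gene, and 31 because the smooth muscle genes Cnn1, Des, Myl9 and Mylk summed to 5 or more. Of the 39 cells with such a muscle sum, 8 had already been left out for Ovgp1. The measured values themselves chose the high and low cells, so the levels of these 8 genes below describe the choice.

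Acot7 codes for an acyl-CoA thioesterase, an enzyme that splits long-chain acyl-CoA into free fatty acid and coenzyme A. Cited4 codes for a transcriptional co-activator that binds CBP and p300 and works with AP-2 factors. Jam2 codes for a junctional adhesion molecule of the immunoglobulin superfamily, found at tight junctions. In the mouse the uterine epithelium is a simple layer at birth, and glands bud from it into the stroma during the first weeks.

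All pnd14 cells are treated as a single sample, since no label tells animals apart, and no p-value is given anywhere. A level is the sum of a gene's counts over a set of cells per 1000000 counts (CPM), and its 95% interval in square brackets covers counting error only. Equal depth means that each cell was thinned to 1000 counts, which 59 high and 32 low cells reached. The high cells were deeper, with a median total of 1965 counts and a highest of 5692, against 1516.5 and 5640 in the low cells. The median number of genes per cell was 21.5% above that of the low cells as deposited and 2.67% above it at equal depth. A total above double the pnd14 median was found in 8 high cells and 1 low cell, and no doublet caller was run. The 3 title blocks of 96 consecutive numbers at pnd14, called runs 3, 4 and 7, held 30, 7 and 24 high and 15, 7 and 14 low cells. What such a block stands for is not in the labels.

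The upstream sequences of Acot7 and Cited4 are shown because these genes gave the split most of its counts. Each is the 250 bases before the start site in RefSeq (build GRCm38.p6, while mm9 is the build named in the submitters' processing notes). Capitals mark the GC box GGGCGG, the NF-Y element CCAAT and the TATA box, spelled TATAAA, on either strand, letters picked after the windows were read.
Acot7, chr4:152185358-152185607, plus strand: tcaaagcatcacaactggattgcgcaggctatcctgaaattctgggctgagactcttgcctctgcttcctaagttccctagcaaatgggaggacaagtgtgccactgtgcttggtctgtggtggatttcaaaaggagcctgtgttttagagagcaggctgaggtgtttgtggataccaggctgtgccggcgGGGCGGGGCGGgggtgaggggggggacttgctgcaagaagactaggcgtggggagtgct
Cited4, chr4:120666313-120666562, plus strand: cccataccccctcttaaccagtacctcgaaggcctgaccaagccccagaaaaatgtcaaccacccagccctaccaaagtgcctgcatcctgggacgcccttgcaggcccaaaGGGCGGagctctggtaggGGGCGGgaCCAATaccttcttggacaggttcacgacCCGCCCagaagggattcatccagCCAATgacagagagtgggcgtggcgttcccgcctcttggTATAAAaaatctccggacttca
The Acot7 window holds GC boxes that overlap by a base and neither of the other elements, while the Cited4 window holds all 3 kinds. Of 32851 such windows of all genes, 32.7% hold GGGCGG, 33.8% hold CCAAT and 12.4% hold TATAAA. Neither window holds, on either strand, ACGTG (core of the hypoxia response element, in 16.6% of windows), GGAATG (TEAD element, in 12.6%), ATTGTT (SOX element, in 9.42%) or TGTTTAC (forkhead element, in 3.17%). The AP-2 element (13.7% of windows) and the steroid response element (0.387%) were not matched in them either.

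Acot7 stood at 4116 CPM [3778, 4476] in the high cells and 175.7 CPM [87.7, 314] in the low cells. Its counts per high cell ran from 0 over a median of 7 to 36, and no low cell had more than 2. Cited4 stood at 2912 CPM [2629, 3217] against 223.6 [122.2, 375], with 0, 5 and 29 counts as the lowest, median and highest of the high cells. Jam2 stood at 827.7 CPM [680, 998] against 175.7 [87.7, 314], with a median of 1 and a highest of 14. Of the high cells, 34 had counts of all 3 genes, 24 of exactly 2, and 3 of only 1. The sum of the same 3 genes chose these cells, so the numbers describe the choice. Jam2 was the marker most often without a count, in 22 high cells, against 5 for Acot7 and 3 for Cited4.

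The balance between the markers differed from run to run. Cited4 in the high cells of runs 3, 4 and 7 was at 3679, 703.4 and 2864 CPM, while Acot7 was at 3596, 3166 and 5078 CPM. Run 4 has only 7 high cells, with 14 counts of Cited4 in all. The high cells made up 62.5% [47.4, 76], 43.8% [19.8, 70.1] and 54.5% [38.8, 69.6] of the filtered cells in runs 3, 4 and 7, intervals that overlap.

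The 3 markers can also be set against each other in groups made by a single marker. As all 3 belong to the rule, these values describe the chosen cells and support nothing further. Among the filtered cells, meaning the high, low and between cells together, the 52 with at least 3 counts of Acot7 had Cited4 at 2399 CPM against 930 in the 35 without Acot7, a log2 ratio of 1.37 [0.97, 1.78]. Jam2 was at 854 against 268 CPM in the same cells, with 1.67 [0.96, 2.47]. In the 47 cells with at least 3 counts of Cited4, Acot7 was at 3312 against 709 CPM in the 33 without, with 2.22 [1.76, 2.72]. The 49 cells with Jam2 had Acot7 at 3517 against 1678 CPM, with 1.07 [0.81, 1.33], and Cited4 at 2354 against 1365, with 0.79 [0.49, 1.09]. At equal depth these log2 ratios were 1.43, 1.55, 1.87, 1.03 and 0.90. Across the 59 high, 11 between and 32 low cells that reach 1000 counts, the Spearman correlations of the thinned counts were 0.31 for Acot7 with Cited4, 0.26 for Acot7 with Jam2 and 0.23 for Cited4 with Jam2. These cells share libraries, and most counts are low.

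Cells of this kind were rare at the other ages. The 3 markers were chosen with earlier results of these data known, so the contrast between ages describes that choice. Each age also lies in title blocks of its own, so age and block cannot be told apart. Under the same rule 7 cells at pnd0 were high, 9 at pnd7, 3 at pnd28 and 2 at pnd56. These are 4.32% [1.75, 8.70], 3.60% [1.66, 6.72], 6.25% [1.31, 17.2] and 4.55% [0.56, 15.5] of the filtered cells, against 56.5% [46.6, 66] at pnd14. At equal depth a sum of at least 3 was found in 58.8% of pnd14 cells and in 3.75%, 1.61%, 9.09% and 2.38% at pnd0, pnd7, pnd28 and pnd56. At equal depth 18.6% of pnd14 cells had no count of the 3 genes, against 89.4% at pnd0 and 88.4% at pnd7. With fewer than 10 high cells at each other age, no high and low comparison was made there. Within pnd14 the split reached the cells left out as well: 16 of the 34 cells with Ovgp1 and 12 of the 31 muscle cells had a marker sum of at least 5.

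**Figure D1:**
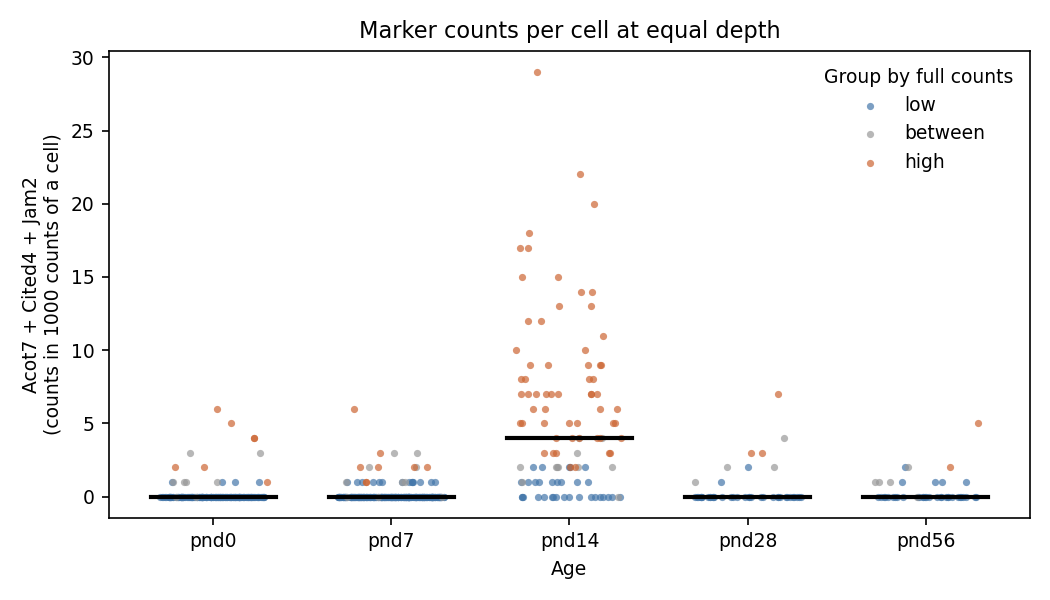
Counts of Acot7, Cited4 and Jam2 summed in each filtered cell after thinning to 1000 counts (vertical axis), by age (horizontal axis), with 1 point per cell, colour for the group set on the full counts and a black line at the median. The median is 4 at pnd14, with cells up to 29, and 0 at each other age, with no cell above 7.

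Just inside the limit, the 6 cells with a sum of 5 or 6 had Acot7 at 1563 and Cited4 at 1379 CPM, and just outside it the 11 cells with 3 or 4 had 956.4 and 521.6 CPM. Jam2 had 1 count in the first set and 4 in the other. These levels follow from how the sets were chosen.

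Both groups carried Krt18, a keratin of simple epithelium, while 3 other keratins had few counts. Krt18 was at 5260 CPM in the high and 5908 in the low cells, and at equal depth it was counted in 94.9% [85.9, 98.9] and 84.4% [67.2, 94.7] of them. Epcam, which codes for the protein used in the sort, was at 519.2 against 191.6 CPM, with a log2 ratio of 1.44 [0.54, 2.46], and was counted in 28.8% [17.8, 42.1] and 15.6% [5.28, 32.8] at equal depth. Its ratio was above 0 in runs 3, 4 and 7, at 2.73, 1.2 and 0.79. Cdh1, the epithelial cadherin gene, was at 384 against 255.5 CPM with an interval that includes no difference (0.59 [−0.25, 1.5]). Krt7 leaned to the low cells, at 218.2 against 351.3 CPM, and its interval also includes no difference (−0.69 [−1.54, 0.18]). It was counted in 11.9% of high and 21.9% of low cells at equal depth. Krt8 and Krt19 had 5 counts each in the high cells and no count in the low cells.

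Markers of stroma, blood and mesothelium took a larger share of counts in the low cells, with a large part in single cells. Stroma and fibroblast markers took 0.136% [0.108, 0.168] of the counts in the low and 0.0429% [0.0325, 0.0556] in the high cells, and 1 low cell held 39 of the 85 low counts. Erythroid markers took 0.104% against 0.00376%, with 49 of 65 counts in 1 low cell, the shallowest. Mesothelial markers took 0.0383% [0.0246, 0.057] in the low and 0.0105% [0.0058, 0.0177] in the high cells. They had 24 and 14 counts there, with 11 of the 24 in 1 low cell. Immune, ciliated, squamous and urothelial markers had at most 19 counts in either group. Endothelial markers took 0.0888% in the high and 0.0798% in the low cells. The leukocyte gene Ptprc and the endothelial cadherin gene Cdh5 had no count in either group. Over 0.5% of counts in other cells' markers were found in 7 low and 3 high cells, with a highest of 8.87% and 1.20%. Without these 10 cells, an alternative chosen after seeing the data, all 21 genes named below were still past 2-fold. Those genes were picked for such ratios in a set that includes the 58 high and 29 low cells left. The part that other cell types have in the ratios was not tested.

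Of 2067 genes with at least 20 counts over both groups, 15.7% stood at least 2-fold higher in the high cells and 10.1% at least 2-fold lower. At equal depth these were 13.5% and 8.16% of the genes tested. The median log2 ratio of all genes was 0.08, and median-of-ratios scaling moves every ratio up by 0.11. A ratio of 2-fold is within reach of counting error at 20 counts, so these percentages serve only as the background for the lists below. Only genes with at least 50 counts could be named. Of these, 9.80% (73 genes) were past 2-fold higher and 3.49% (26 genes) past 2-fold lower. Genes were named by a rule on size: past 2-fold both as deposited and at equal depth, found in no less than 20% of cells in the higher group at equal depth, on the same side in each run, and still past 2-fold without the cell of the largest count. The rule was met by 39 genes in the higher and 6 in the lower direction, and the 15 and 6 with the interval bound farthest from no difference are described.

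The 15 named genes that stood higher in the high cells have varied roles. Nme7, a member of the nucleoside diphosphate kinase family linked to cilia and centrosomes, was at 2325 CPM [2073, 2599] against 750.5 [551.5, 998]. High cells had 0, 4 and 18 counts as lowest, median and highest, and low cells 0, 1 and 8, so the groups overlap cell by cell. Its log2 ratio was 1.63 [1.19, 2.11] and 2.01 at equal depth, where 81.4% of high and 40.6% of low cells had a count, and 2.27, 0.33 and 1.66 in runs 3, 4 and 7. Nme7 overlaps Atp1b1 on the genome, so reads of the pair could have been mixed if strand was not used. Mvb12a, a subunit of the ESCRT-I complex that sorts membrane proteins into endosomes, was at 752.5 against 160 CPM, with 2.24 [1.30, 3.34] and 2.73 at equal depth. Sort1, the sorting receptor sortilin, was at 511.7 against 127.7 CPM with 2.0 [0.94, 3.27], most of it from run 7, and its ratio was 0.31 in run 3.

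Copz1, a subunit of the COPI coat, was at 986 against 319.4 CPM with 1.63 [0.94, 2.38]. Stx18, a syntaxin of the endoplasmic reticulum, was at 872.9 against 287 CPM with 1.60 [0.88, 2.41] and 1.12 at equal depth. Both were counted in under 46% of high cells at equal depth, Copz1 in 45.8% and Stx18 in 42.4%, against 21.9% of low cells for each. Rhbdd3, a rhomboid domain protein gene that overlaps Ewsr1, and Ascc1, a subunit of the activating signal cointegrator complex, had 55 counts each against 6, with log2 ratios of 2.11 [0.90, 3.62]. In run 7 Ascc1 had only 0.26, and Rhbdd3 had 9 counts against none.

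Slc25a48, a mitochondrial carrier, was at 1904 CPM [1676, 2153] against 766 [565.2, 1016], with a log2 ratio of 1.31 [0.86, 1.79] that was nearly equal in runs 3, 4 and 7 (1.31, 1.2 and 1.32). Slc5a11, which carries inositol into cells with sodium, stood at 707 against 223.6 CPM with 1.66 [0.84, 2.59]. Uqcrc2, a core subunit of respiratory complex III, was at 820 against 223.6 CPM with 1.88 [1.07, 2.79]. Its ratio ran from 4.16 in run 3, on 1 low count, to 0.67 in run 7. Etnk1, an ethanolamine kinase of phospholipid synthesis, was at 504.2 against 143.7 CPM with 1.81 [0.80, 3.0].

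Lbp, the lipopolysaccharide-binding protein, was at 2160 CPM [1917, 2424] against 894.2 [675.5, 1161], with 1.27 [0.85, 1.71], and 34 of its counts lay in 1 high cell. Lamb2, a laminin chain of basement membranes, was at 677.2 against 191.6 CPM with 1.82 [0.95, 2.83], 23 of its 90 high counts lay in 1 cell, and its ratio was 0.31 in run 3. Trib1, a pseudokinase that directs proteins to degradation, was at 474.1 against 95.8 CPM with 2.31 [1.10, 3.81] and 1.58 at equal depth. Gramd3 was at 820 against 287 CPM with 1.51 [0.79, 2.32], and 0.71 with thinning to 1500 counts.

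Parva, an actin-binding partner of integrin-linked kinase, was at 195.6 CPM [127.8, 287] in the high and 942.1 [717, 1215] in the low cells, with a log2 ratio of −2.27 [−2.99, −1.58] and −2.51 at equal depth. It had a count in 11.9% of high and 40.6% of low cells at equal depth, and its ratios in runs 3, 4 and 7 were −1.53, −1.97 and −2.74. Bcam, a laminin-binding cell adhesion molecule, was at 150 against 590.8 CPM with −1.97 [−2.84, −1.15], and at 0.10 among the 37 high and 22 low cells without any count of Ovgp1 or the muscle genes. Lad1, the basement membrane filament protein ladinin, was at 120 against 574.9 CPM with −2.26 [−3.20, −1.37], counted in 5.08% and 21.9% of cells at equal depth.

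Ier3, an immediate early gene, was at 459 CPM [351, 590] against 1230 [970, 1537], with −1.42 [−1.93, −0.92] and −1.65 at equal depth, and −0.81 among cells without any count of Ovgp1 or the muscle genes. Id1, an inhibitor of helix-loop-helix factors and a target of BMP signalling, was at 331.1 against 910 CPM with −1.46 [−2.06, −0.87], but at −0.17 in run 3 against −1.92 and −2.91 in runs 4 and 7. Without run 3 it was −2.57 and without run 7 −0.82. Hmgb1-ps6 was at 361.2 against 734.6 CPM with −1.02 [−1.64, −0.41], and as a pseudogene it can share reads with Hmgb1, whose own ratio was −0.71 [−2.01, 0.64].

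**Figure D2:**
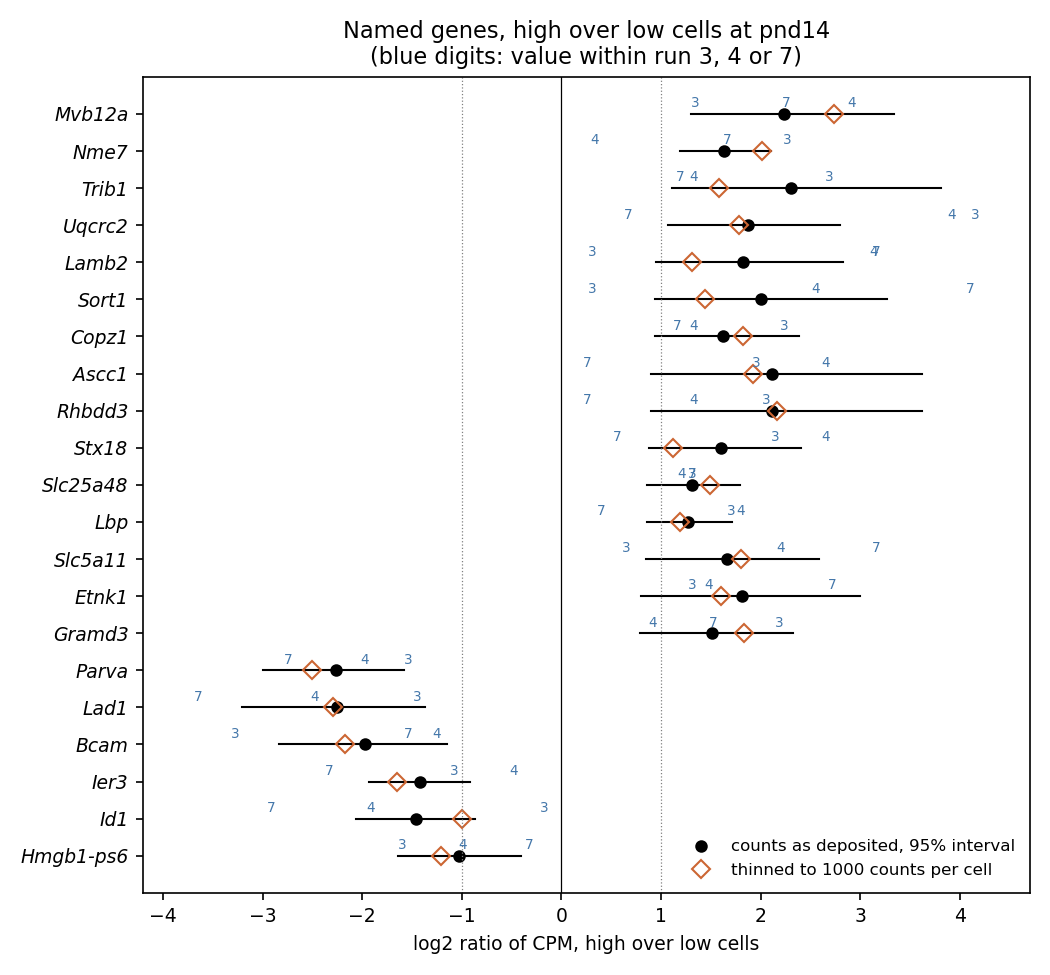
Log2 ratio of CPM in high over low cells (horizontal axis) for the 21 named genes, as deposited with its 95% counting interval (black), at equal depth (orange diamonds) and within runs 3, 4 and 7 (blue digits), with dotted lines at 2-fold. A run in which a group had no count is placed at the bound that a floor of 3 counts gives. Each within-run value is on the side of its pooled value, although some, such as Sort1 and Lamb2 in run 3 at 0.31, are near 0.

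The naming depended on how the high cells were defined. With the cells grouped by Acot7 alone or by Cited4 alone, 14 of the 21 named genes were past 2-fold in the same direction, and with Jam2 alone 5 were. Mvb12a (1.5, 2.44 and 1.67), Slc5a11 (1.12, 2.70 and 1.04) and Bcam (−1.71, −2.20 and −1.90) were past 2-fold in all 3 groupings, by Acot7, Cited4 and Jam2 in that order. Ascc1 and Lad1 changed side, Ascc1 to −0.22 by Acot7 and Lad1 to 0.39 by Jam2. Against only the 13 low cells with no marker count, 19 of the 21 were past 2-fold. Lamb2 (0.80) and Rhbdd3 (0.77) were not, while Nme7 stood at 3.99, Slc5a11 at 3.86, Stx18 at 2.58, Gramd3 at 2.49, Slc25a48 at 2.12, Parva at −1.45 and Bcam at −3.33. These 13 cells hold only a part of the low counts, which over all 36 low cells were 47 for Nme7 and 14 for Slc5a11. Without run 3 Lad1 stood at −5.19 on 1 high count, Mvb12a at 4.55 on 1 low count, Sort1 at 3.70, Lamb2 at 3.10 and Slc5a11 at 2.86. In runs 4 and 7 Sort1 had 1 low count each, and Lamb2 and Slc5a11 had 2 each. Without run 7 Uqcrc2 stood at 3.98, with 1 low count in each of runs 3 and 4, Lbp at 1.85, Sort1 at 0.89 and Ier3 at −0.88.

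The 11 cells with a marker sum of 3 or 4 took no part in the choice of the named genes. Their levels lay between those of high and low cells for 12 of the 15 higher and 5 of the 6 lower genes. The cells left out for Ovgp1 lay between for 12 and 3 of these genes, and the muscle cells for 10 and 3. The named genes were chosen for a wide gap between the groups, so these numbers describe levels and support nothing further. On a log scale the cells with a sum of 3 or 4 were nearer to the high cells for 8 of the 15 and 3 of the 6. Nme7 was at 1739 CPM and Slc25a48 at 1174 CPM there, both between the groups, whereas Trib1 was at 43.5 CPM, below both.

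The levels at the other ages lay on no common side of the high and low cells. At pnd7, 8 of the 15 higher genes lay between the levels of high and low pnd14 cells, 5 below both and 2 above both, and 5 of the 6 lower genes lay between. Nme7 was at 182.9 CPM and Slc25a48 at 159.1 CPM in filtered pnd7 cells, both below the pnd14 low cells. Uqcrc2, at 420.8 CPM at pnd7, and Copz1, at 802.9, were higher there than in the pnd14 low cells and lower than in the high cells. Parva, at 394.02, Lad1, at 578.4, and Bcam, at 471.3 CPM at pnd7, had levels above those of the pnd14 high cells. By pnd56 11 of the 15 higher genes were below both pnd14 groups. No animal is named at any age, so these levels are set side by side only.

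**Figure D3:**
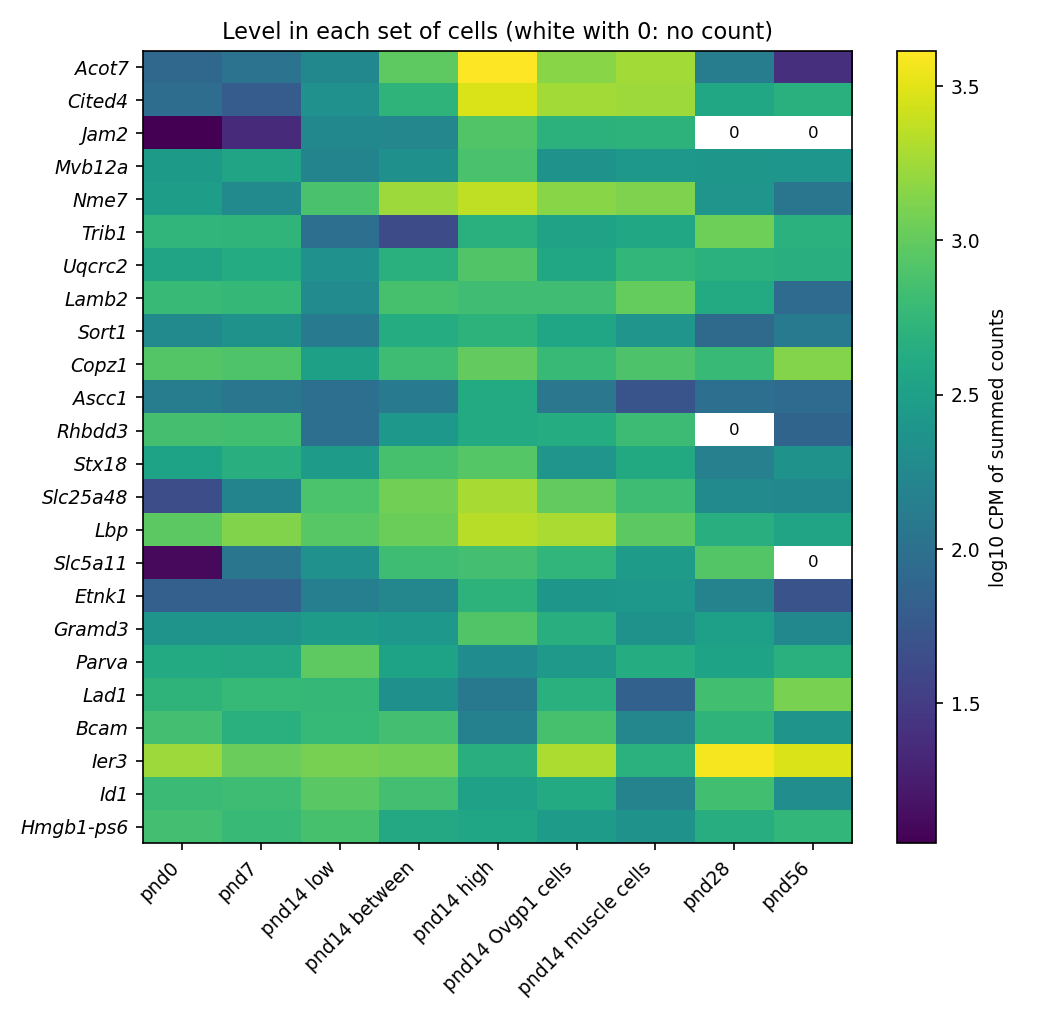
Level (colour, log10 CPM of summed counts) of the 3 markers and the 21 named genes (rows) in the pnd14 groups, the cells left out at pnd14 and the filtered cells of the other ages (columns). Nme7 and Slc25a48 are brightest in the high cells, at 2325 and 1904 CPM, and Jam2 has no count at pnd28 or pnd56 in these cells.

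Of 15 genes listed for pnd14 from earlier results on these cells, 10 had at least 20 counts over both groups. Of these, 2 were at least 2-fold higher and 2 at least 2-fold lower, with a median log2 ratio of 0.51. Against the 13 cells with no marker count the median was 1.64. Galm, an aldose mutarotase, was at 857.8 against 814 CPM, 0.07 [−0.41, 0.58]. Cbr2, a carbonyl reductase, was at 1821 against 1405 CPM with 0.37 [0.02, 0.74], of opposite sign in runs 4 and 7 (−1.80 and 1.55). Hilpda, a lipid droplet protein induced in hypoxia, was at 481.6 against 271.5 CPM, 0.83 [0.04, 1.69], and the transcription factor Gata2 at 1181 against 814, 0.54 [0.07, 1.02]. Fgfr2, the receptor of fibroblast growth factors of the stroma, was at 421.4 against 175.7 CPM, 1.26 [0.31, 2.34] and 1.06 at equal depth. On the other side, Cldn10 was at 97.8 against 431.2 CPM, −2.14 [−3.22, −1.14], and Ltf, lactoferrin, at 67.7 against 590.8 CPM, −3.13 [−4.36, −2.05], with 17 of its 37 low counts in 1 cell.

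Among the partners of the markers, junction genes split. Of 8 measured tight junction genes, Cldn7 was past 2-fold higher, at 1437 against 590.8 CPM with 1.28 [0.77, 1.83], on the same side in each run. Cldn3, the claudin with the most counts, was at 6358 against 4136 CPM, 0.62 [0.42, 0.83]. Cldn10 and the polarity gene Pard3 (−1.57 [−2.48, −0.69]) were past 2-fold lower, and the median of the list was −0.10. Of 13 measured genes of fatty acid metabolism, 3 were past 2-fold higher and 1 lower, with a median of 0.44 (0.50 at equal depth). Acadvl, the very long-chain acyl-CoA dehydrogenase, had 1.15 [0.30, 2.10], and Cpt1a, which carries long-chain acyl groups into mitochondria, had 2.03 [0.32, 4.40] from 26 and 3 counts. Fads1, a fatty acid desaturase, had −2.76 [−4.57, −1.25]. Genes of the partners of Cited4 were sparse. Ep300, for p300, had 0.72 [−0.45, 2.07], Crebbp, for CBP, had only 1 low count, and the AP-2 gene Tfap2c had no count in either group. Hif1a, from the same list, had 1.08 [−0.05, 2.40].

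Lists of signalling genes had medians below 0. The FGF, Notch, BMP and Hedgehog list had a median of −1.18 (−1.0 at equal depth), with 4 of 7 measured members past 2-fold lower and Fgfr2 the only member past 2-fold higher. The lower members were the BMP targets and mediators Id1, Id3 and Smad5 and the Hedgehog transducer Smo. Id3 was at 436 against 1150 CPM, −1.40 [−1.92, −0.88], but at 0.07 in run 3, and 18 of its 72 low counts lay in 1 cell. Smad5 had −1.43 [−2.51, −0.37] and Smo −1.18 [−2.30, −0.07], each with under 20 counts a group, and at equal depth Smo had −0.66. The Wnt list had a median of −0.38 over 6 members, while Lgr4, the R-spondin receptor, had 19 counts against 1, 3.16 [0.51, 8.54], with 9 of the 19 in 1 cell and 0.34 at equal depth.

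The oestrogen-responsive list had a median of −1.09 over 5 members and the secretory list the same median, since both hold Ltf, Clu and Muc1. In the oestrogen list Padi2, a peptidylarginine deiminase, was on the other side with 21 high counts and no low count (0.12 at equal depth), and Car2, a carbonic anhydrase, had 0.47 [−0.41, 1.42]. Clu, a secreted chaperone, was at 67.7 against 687 CPM, −3.34 [−4.56, −2.29], found in 5 of 61 high and 10 of 36 low cells, and it had no high count in run 4. Wfdc2, a whey acidic protein-type inhibitor, was level at 6727 against 7090 CPM, −0.08 [−0.24, 0.09]. The MHC and interferon list had −0.93 over 9 members, 4 of them past 2-fold lower and none higher. Ifitm1, its member with the most counts, had 0.12 [−0.05, 0.28], and Tapbp, which loads peptides on MHC class I, had 0.42 [−0.13, 1.0]. Cd74, the invariant chain, had −3.41 [−5.15, −2.0], but 24 of its 25 low counts lay in 1 cell. Its 5 high counts lay in 1 cell as well, so the ratio of 1.21 without that low cell gives no direction. Esr1, the oestrogen receptor gene, was at −0.45 [−1.09, 0.22], and the progesterone-responsive list had 0.54, with −0.15 at equal depth.

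Transcription factors of the Mullerian duct were divided. Of 11 measured members of that list, 3 were past 2-fold higher and 2 lower, with a median of 0.28, and at equal depth 1 was past 2-fold higher and 2 lower. Emx2, needed for the duct to form, had 28 counts against 4, 1.72 [0.21, 3.69] and 0.85 at equal depth. Hoxb5 had 22 high counts and no low count, which a floor of 3 counts over the low cells turns into at least 3.46-fold higher, and 0.70 on the log2 scale at equal depth. Nr2f2, a factor of stroma and vessels, was at 120 against 399.2 CPM, −1.73 [−2.73, −0.77], and Tead2 had −1.09 [−2.14, −0.03]. In the retinoid list Rdh10, which makes retinal, was at 309 against 63.9 CPM, 2.27 [0.81, 4.21], and the receptor Rxra at 285.9 against 111.8, 1.36 [0.17, 2.76], both above 0 in each run. Its other measured members were Aldh1a1 at 0.55 [−0.52, 1.74], Dhrs3 at −0.37 [−1.08, 0.36] and Adh1 at −0.95 [−2.32, 0.45]. The list's median over 5 members was 0.55, and 0.20 at equal depth. It took 0.160% of the counts in the high and 0.163% in the low cells.

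The oxidative phosphorylation list had a median of 0.23 over 17 members (0.07 at equal depth), with 2 past 2-fold higher, and the hypoxia and glycolysis list 0.08 over 11. Pkm, a pyruvate kinase, was at 3476 against 1804 CPM, 0.95 [0.65, 1.26], while Aldoc, an aldolase, had −2.94 [−4.28, −1.78]. Detoxification enzymes had 0.04 over 15 members and keratins and adhesion 0.00 over 13. In the keratin and adhesion list 2 members were past 2-fold higher and 1 lower. The lower member was the laminin chain gene Lamb3, with 4 high and 17 low counts, −3.17 [−5.20, −1.56]. Cholesterol synthesis had 1.27 over 5 members, against 0.34 at equal depth, and ion and fluid transport 0.47 over 10. The immediate early list had −0.22 over 11, with Nr4a1, a nuclear receptor induced by stimuli, at 1.36 [0.67, 2.10] opposite to Ier3. G2 and M phase genes held 0.0542% [0.0424, 0.0682] of high and 0.107% [0.0829, 0.136] of low counts, with 19 of the 67 low counts in 1 cell, and S phase genes 0.105% and 0.113%.

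**Figure D4:**
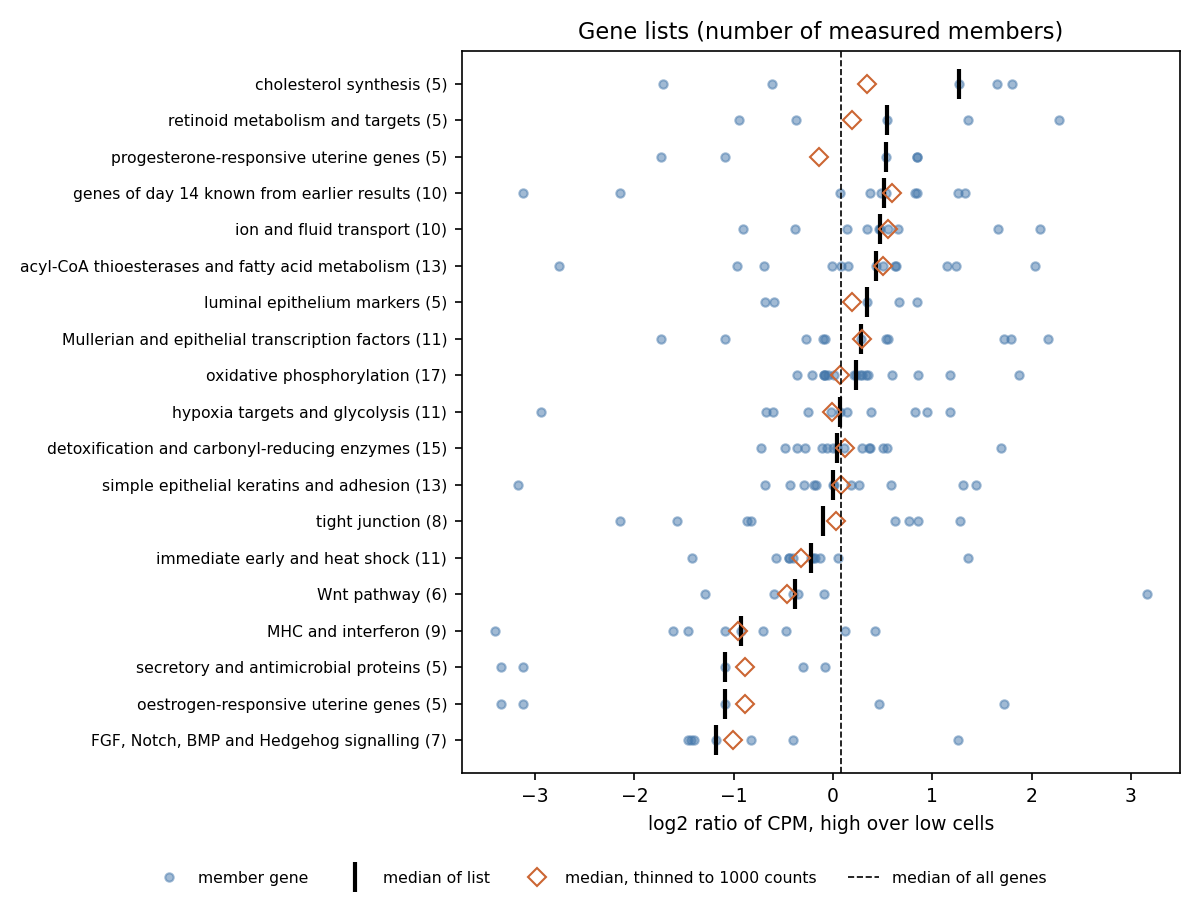
Log2 ratio of CPM in high over low cells (horizontal axis) for the measured members (blue points) of each list with at least 5 of them (rows), with the list's median (black bar), its median at equal depth (orange diamond) and the median of all genes at 0.08 (dashed line). Medians run from −1.18 for FGF, Notch, BMP and Hedgehog signalling to 1.27 for cholesterol synthesis.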

How the data were processed

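CEL-seq libraries of single CD326+ cells were counted per gene and cell. The deposited values are raw counts, whole numbers for 12479 gene rows and 714 cells, and were used as the authors gave them. TopHat, Cuffnorm and mm9 are named without roles per the submitters' processing notes, and no source used here states if molecular identifiers were collapsed. Counts were summed over cells. Ratios carry exact conditional binomial intervals, levels exact Poisson intervals and shares exact Clopper-Pearson intervals (all 95%, Python 3.11.15 with scipy 1.17.1). A group at 0 was given a floor of 3 counts over the group. Thinning drew counts without replacement with a fixed seed. The ratio and interval code was tested on simulated data. The 8 genes of the rule were left out of the comparison. The members, the 34 gene lists and the naming rule were chosen with earlier results of these data known, and list members may be named outside the rule. No doublet caller was run. The genes to be named had to pass the size rule given in the report, which ranks them by the interval bound nearest to no difference. Alternatives changed the depth, the count minimum, the scaling, the definition of the groups and the runs kept. Sequence letters other than the planned motifs were picked after the windows were read. Lists with at least 5 measured members have a median.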

Additional observations from a re-analysis of the deposited data

How the results depend on the processing

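All filtered pnd14 cells are treated as 1 sample, as no animal is named. Intervals cover counting error and not the spread between animals, and depth limits genes with under 50 counts. The share of high cells stayed within its interval in the 6 alternatives run, between 48.1% and 58.8%. Of the genes tested, 15.7% were past 2-fold higher and 10.1% lower. These were 13.5% and 8.16% with thinning to 1000 counts, 12.8% and 7.73% at 700, 16.8% and 11.1% at 1500, 14.6% and 9.73% with groups set on thinned counts, 19.4% and 14.99% at a minimum of 10 counts, and 9.80% and 3.49% at 50. Their numbers moved by over 1.5 times there, as the number of genes tested did. The number lower moved so as well without any Ovgp1 or muscle count (10.8%), without run 3 (11.4%) and without run 7 (9.87%). Named genes that changed side were Ascc1 by Acot7 alone (−0.22), Lad1 by Jam2 alone (0.39) and Bcam without any Ovgp1 or muscle count (0.10), and the cause was not tested. Of the 21 named genes, 18 stayed past 2-fold with thinning to 1500 counts, 20 with median-of-ratios scaling, 19 with low cells of 0 marker counts only, 17 without any Ovgp1 or muscle count, 19 without run 3, 21 without run 4 and 18 without run 7. They also numbered 21 without cells over 0.5% of other cells' markers, an alternative chosen after seeing the data. No paired analysis was possible because all these cells count as 1 sample and no test was made, so the values within each run are given as descriptions.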

Other observations

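Counts of the Astx genes, a multi-copy family, lay in 1 low cell of run 4 at pnd14, with no count in any high cell. They made up 11.8% of the counts of that cell, from 6 gene rows. These copies are near-identical, so their rows can share reads.

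The core histone rows Hist1h2ap and Hist1h2ao were near 2-fold lower in the high cells, at 4560 and 4650 CPM against 8926 CPM in the low cells for each, with log2 ratios of −0.97 [−1.14, −0.80] and −0.94 [−1.11, −0.77]. They share reads, and 280 of the low counts of each lay in 1 cell.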
